A study of Homo sapiens with 8 samples.

Results

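The 37 genes described here encode lysosomal enzymes and their helper proteins, proteins of the lysosomal membrane, subunits of the vacuolar proton pump (V-ATPase) and the transcription factors TFEB, TFE3 and MITF. They were taken by name from a list whose rule uses no measured value, although earlier results of these data were known when it was made, and all 37 were found among the 20098 protein-coding genes annotated on chromosomes 1 to 22 and X of the human genome build hg19. HL-60, an established human myeloid leukemia line, matures along the granulocyte path under all-trans retinoic acid (ATRA), an active form of vitamin A. Cells were grown with 1 µM ATRA for 4 days, or with the same amount of its solvent ethanol as the control, and both were supplied again on day 2. ChIP-seq, in which DNA bound to nucleosomes that carry a given histone mark is pulled down with an antibody and sequenced, was done for H3K4me3 and for H3K27ac. Each mark had 2 ATRA and 2 control libraries, called ATRA 1, ATRA 2, control 1 and control 2 below, and the labels do not say whether replicates came from separate cultures.

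Lysosomes are acidic compartments in which proteases, glycosidases and lipid hydrolases break down material taken up by the cell or delivered by autophagy, and phagocytes depend on them to degrade what they ingest. The V-ATPase pumps protons into the lumen, with a membrane sector (V0) that carries the protons and a peripheral sector (V1) that hydrolyzes ATP. TFEB, TFE3 and MITF bind E-box sequences, and a longer form of this box in the promoters of many lysosomal genes is known as the CLEAR element. H3K4me3 marks promoters in use or ready for use, and H3K27ac marks active promoters and enhancers.

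The deposited values are the positions of broad peaks called in each library, with no read counts, so the sequencing depth is unknown. What could be measured is whether a peak lies at the transcription start site (TSS), how wide it is, and how many base pairs (bp) of a gene region lie under peaks. These are lengths of called peaks and not signal heights. H3K4me3 peaks covered 62.3 to 63.2 Mb of the genome in the ATRA libraries, 59.8 Mb in control 1 and 47.7 Mb in control 2. H3K27ac peaks covered 64.8 and 86.1 Mb in ATRA 1 and 2, against 28.8 and 54.0 Mb in control 1 and 2. The covered length therefore moved with the treatment over the whole genome, by a log2 ratio of the condition means of 0.22 for H3K4me3 and 0.87 for H3K27ac, and each result on the lysosomal genes is given beside this shift and beside all genes. The paper counted only peaks shared by both replicates, and reports fewer of them for each mark after ATRA than in the control. Here ATRA 1 and 2 held 28200 and 39332 H3K27ac peaks, and control 1 and 2 held 15457 and 29616. H3K4me3 peaks numbered 16258 and 16487 with ATRA, and 16160 and 13241 in the controls. For each mark, the paper's count for the control exceeds the number of all peaks in the smaller library labeled control here. That count is below the number in each library labeled ATRA. Whether the conditions are exchanged in the labels or in the paper was not tested, nor was any other cause of these opposite directions. Every comparison below rests on the library labels, and each direction would reverse if these were exchanged. Of 8 myeloid marker genes, 5 carried H3K4me3 at the TSS in all 4 libraries (MPO, CD33, SPI1, CEBPA and CEBPE), PRTN3 did so in 2 libraries, and ELANE and AZU1 in none. None of 4 B cell, 4 erythroid and 4 epithelial or liver markers did so in all 4 libraries, although CD79A and KLF1 did in 3, and of 4 T cell markers only CD4 did. Since 2 libraries against 2 allow no exact two-sided permutation p below 0.33, no test was made, and a gene is called higher where both ATRA libraries exceeded both control libraries.

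Some promoters of these genes held the E-box of TFEB and its relatives. The longer form is known from promoters of lysosomal genes, so a high share in a list named for the lysosome is no independent result. The box CACGTG, which reads the same on both strands, was found between 250 bp before and 50 bp after the TSS of 11 of the 37 genes (29.7%), compared with 8.74% of all promoters and 11.0% of the promoters of genes with H3K4me3 at the TSS in all 4 libraries. Its longer form TCACGTGA, which is also its own reverse complement and contains CACGTG, was found in 7 of the 37 (18.9%), compared with 1.46% and 2.37%. Those 7 genes were CTSA, LAMP1, GAA, HEXA, MCOLN1, ATP6V0D1 and ATP6V1H, and CTSB, CTSD, CD63 and NEU1 held the shorter box alone. The median GC content of the 37 promoters was 68.7%, compared with 63.7% over all genes and 66.3% over the genes with H3K4me3.

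The stretches below are read from the hg19 genome on the strand of the gene, from 20 bases before the first CACGTG to the last base before the TSS. They are shown for 5 of the genes that carry the longer form, and each CACGTG is in capitals, so that the longer form appears as tCACGTGa. They are CTSA at chr20:44519912-44519973 (plus strand), LAMP1 at chr13:113951342-113951553 (plus), GAA at chr17:78075284-78075379 (plus), MCOLN1 at chr19:7587449-7587509 (plus) and ATP6V0D1 at chr16:67515061-67515139 (minus).
CTSA: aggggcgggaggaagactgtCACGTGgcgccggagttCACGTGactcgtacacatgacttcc
LAMP1: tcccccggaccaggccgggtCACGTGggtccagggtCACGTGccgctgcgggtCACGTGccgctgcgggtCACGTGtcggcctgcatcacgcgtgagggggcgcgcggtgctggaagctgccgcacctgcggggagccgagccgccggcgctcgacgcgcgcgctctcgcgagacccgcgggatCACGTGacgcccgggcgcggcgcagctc
GAA: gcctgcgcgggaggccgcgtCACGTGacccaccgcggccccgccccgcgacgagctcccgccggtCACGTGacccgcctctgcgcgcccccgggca
MCOLN1: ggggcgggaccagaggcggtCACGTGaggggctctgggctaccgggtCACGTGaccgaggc
ATP6V0D1: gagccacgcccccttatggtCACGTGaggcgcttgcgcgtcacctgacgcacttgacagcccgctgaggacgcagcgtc
The first base of the longer form lay 26 bases before the TSS in CTSA and 60 in ATP6V0D1. GAA held the form at 77 and 32 bases before the TSS and MCOLN1 at 42 and 15, and LAMP1 held it at 29 and again at 2 bases before the TSS, where the stretch shown ends within it. LAMP1, which encodes an abundant glycoprotein of the lysosomal membrane, held 6 copies of CACGTG in the searched window, of which 5 are complete in the stretch shown. A match to these letters is a property of the sequence and no measurement of binding.

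Nearly all of the genes carried H3K4me3 at the promoter with and without ATRA. A TSS peak, meaning a peak with at least 1 bp within 500 bp of the TSS, was present in all 4 H3K4me3 libraries at 34 of the 37 genes, compared with 52.4% of all genes. The exceptions were the cysteine proteases CTSH, CTSL and CTSZ. CTSL had a narrow peak of 654 bp in ATRA 2 and of 432 bp in control 1 and none in the other 2 libraries, and CTSH had no H3K4me3 peak anywhere in its region in any library. CTSZ had no H3K4me3 at its TSS in any library, whereas H3K27ac peaks of 5637, 2844 and 690 bp lay within 500 bp of that TSS in ATRA 1, ATRA 2 and control 1. The ATRA 1 peak spanned the TSS, and the other two ended before it. Other transcripts of CTSH and CTSZ were searched too, and no annotated TSS of either gene had an H3K4me3 peak.

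H3K27ac at the promoter varied more between libraries. It was present at the TSS in all 4 libraries at 20 of the 37 genes, compared with 32.1% of all genes. All 20 were among the 34 with H3K4me3 in every library, a share of 58.8%, compared with 60.5% of all genes with H3K4me3 in every library, so the share was close to that background. At 5 genes (CTSH, CTSL, LIPA, TFEB and MITF) no library had H3K27ac at the main TSS, compared with 49.3% of all genes. The library with the widest coverage, ATRA 2, was alone in having a TSS peak at CTSA, GAA, MCOLN1 and ATP6AP1, and control 2 was alone at SMPD1, the acid sphingomyelinase gene. CTSB lacked the peak in ATRA 1 only, and PSAP and ATP6V0A1 lacked it in control 1 only.

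**Figure D1:**
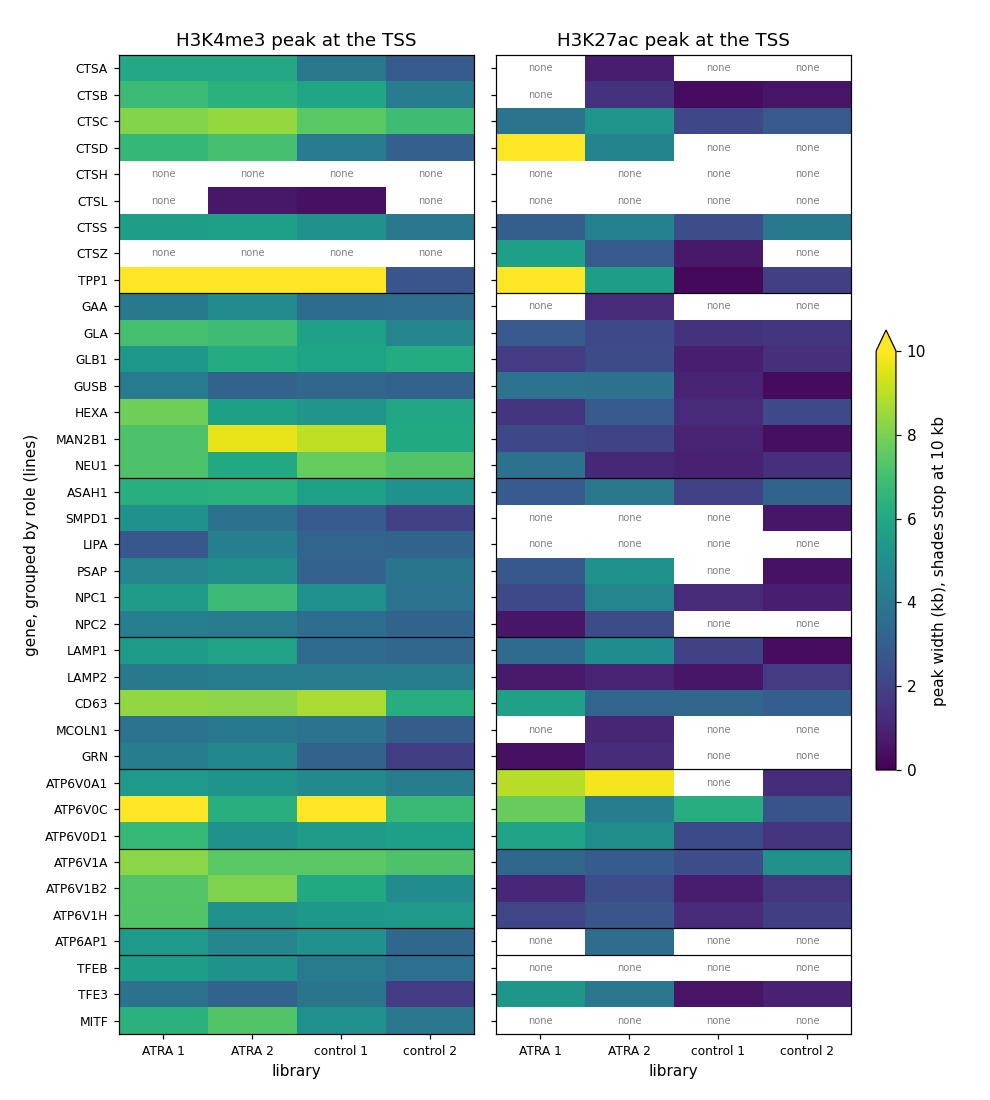
Width of the peaks at the TSS of each of the 37 genes in each library, for H3K4me3 on the left and H3K27ac on the right, with "none" where no peak lay within 500 bp. H3K4me3 was present in all 4 libraries at 34 genes, and H3K27ac at 20 genes.

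At 3 genes an H3K27ac peak lay within 500 bp of the TSS in both ATRA libraries and in no control library, compared with 2.56% of all genes and 3.38% of those with H3K4me3 in every library. These were CTSD, NPC2 and GRN. The TSS peaks of CTSD, which encodes the aspartic protease cathepsin D, were 10369 and 4529 bp wide in ATRA 1 and 2 and spanned the TSS in both. Those of NPC2, a cholesterol transfer protein of the lysosomal lumen, were 624 and 2324 bp, and those of GRN, the gene of progranulin, were 437 and 1281 bp. The GRN peaks and the NPC2 peak of ATRA 1 began after the TSS. Control 2 had an H3K27ac peak of 924 bp just outside the window of NPC2, from -1682 to -759 bp relative to the TSS. It lay within 500 bp of another annotated start of NPC2. The reverse, H3K27ac at the TSS in both control libraries and no ATRA library, was found at 0 of the 37, compared with 0.338% of all genes. Without ATRA 1 the count of 3 became 7 and without control 2 it became 5, whereas no gene of the 37 met the rule among peaks with a −log10 q of at least 5.

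The width of the TSS peaks was then compared. H3K4me3 was wider in both ATRA libraries than in both control libraries at 18 of the 37 genes and narrower at 1, compared with 22.8% and 2.63% of all genes. All 18 were among the 34 with H3K4me3 in every library, where the background was 42.3%. The gene with the narrower peak was NEU1, a sialidase, with 7209 and 6091 bp in ATRA 1 and 2 against 7633 and 7291 bp in control 1 and 2. H3K27ac was wider at 17 genes and narrower at 0, compared with 17.1% and 2.26% of all genes. Of these 17, 16 had H3K4me3 in every library, where the background was 30.0%. The median H3K4me3 width over the 37 genes was 5562 and 5672 bp in ATRA 1 and 2, and 5020 and 3875 bp in control 1 and 2. The H3K27ac median was 2157 and 2639 bp with ATRA, and 622 and 586 bp in the controls. Without ATRA 1, the count of wider H3K27ac peaks was 26 in place of 17, as fewer libraries must then be separated. Among peaks with a −log10 q of at least 5 it was 1, and with the TSS base alone as the window it was 11.

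Over whole gene regions, both marks covered more of these genes with ATRA. A region was the gene body with 10 kb on each side, and the regions were 24385 to 248881 bp long. H3K27ac was higher in both ATRA libraries at 22 of the 37 genes and lower at 0, compared with 30.3% and 2.86% of all genes, and at 20 of the 34 with H3K4me3 in every library, compared with 40.9%. H3K4me3 was higher at 23 and lower at 0, compared with 28.0% and 2.64% of all genes, and at 22 of the 34, compared with 43.7%. Without control 2 the H3K27ac count was 34 in place of 22, as fewer libraries must then be separated, and no share over all genes was taken for it. Both marks were higher at 13 genes: CTSA, CTSD, CTSZ, LAMP1, GAA, HEXA, NPC1, NPC2, PSAP, GRN, TPP1, TFEB and ATP6AP1. The share of all genes called for both marks was not taken. Neither was higher at CTSL, LAMP2, GLB1, NEU1 and ATP6V0C.

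The size of the difference was taken as the log2 ratio of the mean bp under peaks in the ATRA libraries to that in the control libraries, after adding 1000 bp to each mean, which pulls genes with little coverage towards 0. The median over the 37 genes was 0.90 for H3K27ac, compared with 0.18 over all genes, 0.40 over the genes with H3K4me3 in every library and 0.87 for the whole genome. It was 0.23 for H3K4me3, compared with 0.04, 0.15 and 0.22. With 1000 bp added, the medians of both marks were close to the ratio of the covered genome, but with 100 bp added the H3K27ac median was 1.53. Within replicate numbers, the H3K27ac median was 1.20 for number 1 and 0.78 for number 2, and the H3K4me3 median was 0.15 and 0.35. The H3K4me3 median was 0.13 without control 2, the library with the least H3K4me3 coverage, and 0.37 without control 1.

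**Figure D2:**
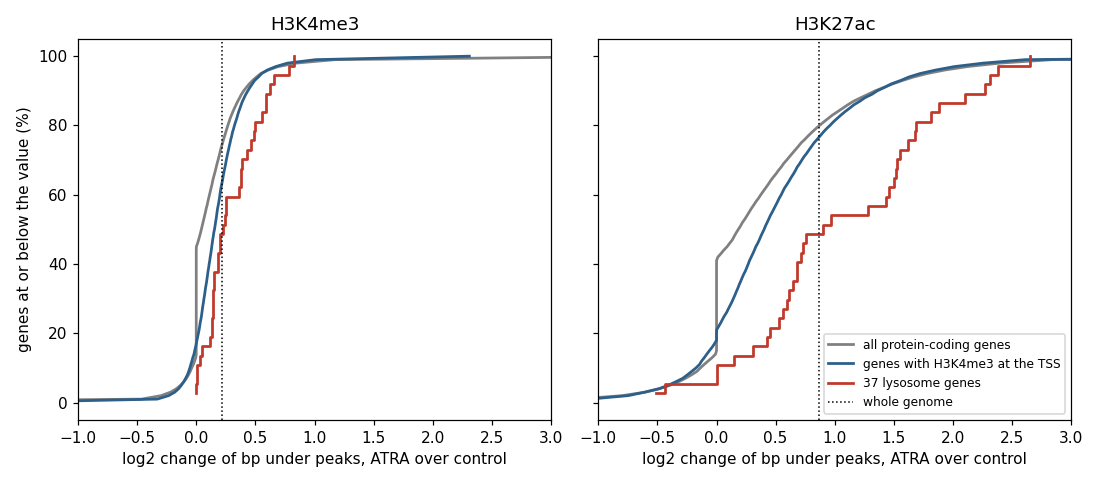
Cumulative share of genes by the log2 change of bp under peaks over the gene region, for the 37 lysosomal genes, all protein-coding genes and the genes with H3K4me3 at the TSS in every library, with the ratio of the whole covered genome as a dotted line. The H3K27ac median of the 37 genes was 0.90 and that of all genes 0.18.

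Scaling every library of a mark to the same total bp under peaks lowered these values. H3K27ac was then higher at 16 and lower at 3 of the 37 genes, compared with 12.9% and 18.5% of all genes, and the median was 0.43 against 0.00 over all genes. H3K4me3 was higher at 14 and lower at 4, compared with 11.0% and 16.9%, with medians of 0.06 and 0.00. The scaling moved the median of all genes from 0.18 to 0.00 for H3K27ac. Most H3K27ac peaks had a low −log10 q. Those with a −log10 q of at least 5 held 11.6% to 15.5% of the H3K27ac bp of a library, and 87.9% to 93.8% of the H3K4me3 bp. Among such peaks H3K27ac was higher at 4 of the 37 genes (GLA, GLB1, GRN and ATP6V0C) and lower at NPC1, compared with 3.42% and 1.53% of all genes, and 13 of the 37 had none in any library. The call at GRN rested on 26 bp in ATRA 2, the edge of a peak that lay mostly outside the region. H3K4me3 was higher at 15 (40.5%) and lower at TFE3 alone, compared with 23.7% and 3.67% of all genes. Of the 10536 genes with H3K4me3 at the TSS in every library, it was higher at 3902 and lower at 528. The share of the 37 was close to that background, and the median log2 changes were 0.18 for the 37 and 0.14 for those genes. The values below rest on the full peak lists. Among the stronger peaks the log2 change of H3K27ac was below 0 at 11 of the 37 genes (CTSA, CTSD, CD63, HEXA, NPC1, NPC2, ASAH1, LIPA, ATP6V0A1, ATP6V0D1 and ATP6V1B2), and that of H3K4me3 at 8 (LAMP2, NPC2, SMPD1, MCOLN1, TFE3, ATP6V0C, ATP6V1A and ATP6V1B2).

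With 1000 bp added, the largest log2 change of H3K27ac was at the gene of TFEB itself. With 100 bp added, GRN, MCOLN1 and GAA, all listed at 0 in both controls, ranked above it. TFEB, at chr6:41651716-41703997 on the minus strand, had 10341 and 6751 bp under H3K27ac in ATRA 1 and 2 and 564 and 468 bp in control 1 and 2, a log2 change of 2.65. Both ATRA values were above both controls in this gene by more than the replicates differed. Among peaks with a −log10 q of at least 5 the conditions overlapped, at 0 and 4849 bp in ATRA 1 and 2 and 564 and 0 bp in control 1 and 2. In the full peak lists no H3K27ac of TFEB was at the main TSS. The peaks lay in intron 1, apart from a single upstream peak in ATRA 1, and the only control peaks were 1 in each library, between 28.2 and 28.9 kb after the TSS, where both ATRA libraries also had a peak. The longest in ATRA 2 was 4525 bp at chr6:41690192-41694716, from 8.6 to 13.2 kb after the TSS. Within 500 bp of the starts of other annotated TFEB transcripts, ATRA 1 had 3 peaks of 3980 bp in all and ATRA 2 had that peak of 4525 bp, and no control peak lay there. H3K4me3 at TFEB was also higher, with 6776 and 5807 bp in the ATRA libraries and 4066 and 3633 bp in the controls, a log2 change of 0.59. Among the stronger peaks it overlapped, at 1214 and 5807 bp with ATRA and 4066 and 0 bp without. Both ATRA libraries, and no control library, had small H3K4me3 peaks in intron 1 as well.

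The other 2 transcription factor genes differed from TFEB. TFE3 had H3K27ac at its TSS in every library, with 5305 and 3990 bp over the region with ATRA and 546 and 1117 bp in the controls, a log2 change of 1.62. Its H3K4me3 values overlapped, at 3712 and 3230 bp with ATRA and 3836 and 1790 bp without. MITF showed the opposite sign for H3K27ac, at −0.51, with 676 and 1219 bp in ATRA 1 and 2 and 0 and 3559 bp in control 1 and 2. The control values lay on both sides of the ATRA values, so the conditions overlapped. H3K4me3 at MITF was higher with ATRA, at 6405 and 7295 bp against 5435 and 4008 bp, a log2 change of 0.46.

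**Figure D3:**
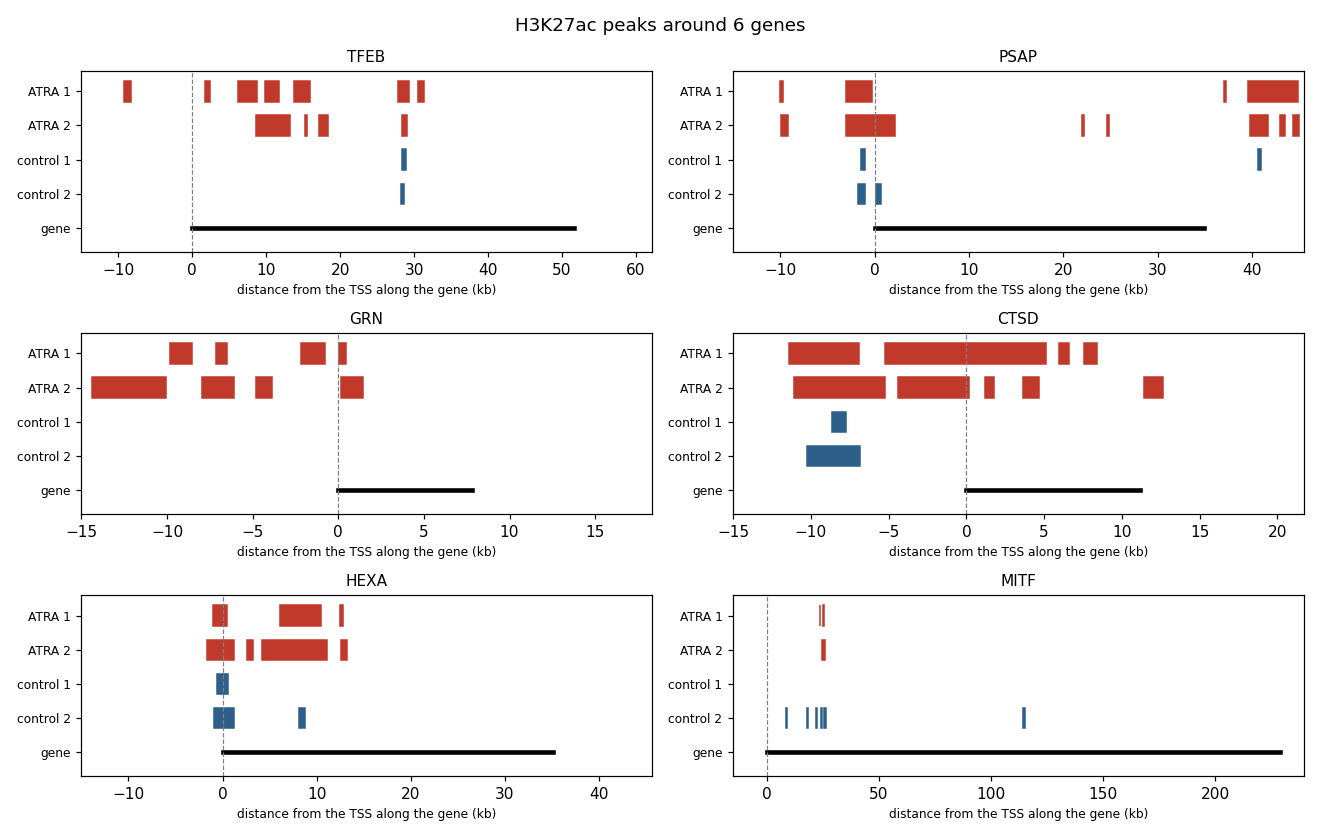
H3K27ac peaks of each library around TFEB, PSAP, GRN, CTSD, HEXA and MITF, by distance in kb from the TSS (dashed line) along the gene, with the gene body as a black line and each bar drawn at least 1 line wide. In the TFEB panel the ATRA libraries have peaks across intron 1 and each control library has 1 peak, and GRN has no control peak.

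Among the 9 protease genes, H3K27ac was higher over the region at 5 and H3K4me3 at 7. Over all genes these calls were made at 30.3% and 28.0%, the shares for the groups below as well. Over the genes with H3K4me3 in every library they were made at 40.9% and 43.7%. CTSD had the largest H3K27ac change of the proteases, with 15687 and 12764 bp in ATRA 1 and 2 against 915 and 3378 bp in control 1 and 2, a log2 change of 2.27. Its ATRA peaks spanned the TSS, while the control peaks lay upstream only. CTSZ, a carboxypeptidase, had 8913 and 7298 bp against 1600 and 1608 bp, a log2 change of 1.81. TPP1, which removes tripeptides from protein ends and is lost in a childhood neurodegenerative disease, had 20104 and 14552 bp against 4090 and 5334 bp, a log2 change of 1.68. The region of TPP1 also holds the TSS of ILK, RRP8 and TAF10, and part of this length lay at those genes. CTSH, an aminopeptidase, had 371 and 1552 bp with ATRA and was listed at 0 in both controls, and CTSA, a carboxypeptidase, had 1866 and 983 bp against 0 and 856 bp. CTSC, which activates the granule serine proteases of myeloid cells, had 4335 and 10529 bp with ATRA and 2173 and 6537 bp without, which overlap, as did CTSB and CTSS. CTSL had no H3K27ac in any library.

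For H3K4me3, CTSD had the largest change of the proteases, with 8389 and 8384 bp in the ATRA libraries and 6237 and 4017 bp in the controls, a log2 change of 0.62. The remaining 6 proteases with higher H3K4me3 were CTSA, CTSB, CTSC, CTSS, CTSZ and TPP1, with log2 changes from 0.15 to 0.49. The H3K4me3 of the CTSZ region lay mostly at the TSS of its neighbor NELFCD.

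Of the 7 glycosidase genes, H3K27ac was higher at 4 (HEXA, GUSB, GAA and MAN2B1), and the log2 changes of the group ranged from 0.56 to 1.69. HEXA, the alpha subunit of beta-hexosaminidase A, had 6214 and 11041 bp in ATRA 1 and 2 and 1204 and 2763 bp in control 1 and 2, a log2 change of 1.69. Its TSS peak was of overlapping width between conditions, and the added length lay further into the gene, where ATRA 1 and 2 had long peaks and control 2 a short one. GUSB, which encodes beta-glucuronidase, had 3814 and 3715 bp against 1009 and 300 bp, a log2 change of 1.53, all of it at the TSS. GAA, the acid alpha-glucosidase gene, had 307 and 3423 bp with ATRA and was listed at 0 in both controls. H3K4me3 was higher at HEXA, GAA and GLA. At HEXA it covered 10879 and 8492 bp with ATRA and 5556 and 5961 bp without, a log2 change of 0.66. GLB1, the beta-galactosidase gene, had 5891 and 6157 bp of H3K4me3 with ATRA and 5818 and 6142 bp without, a log2 change of 0.01.

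**Figure D4:**
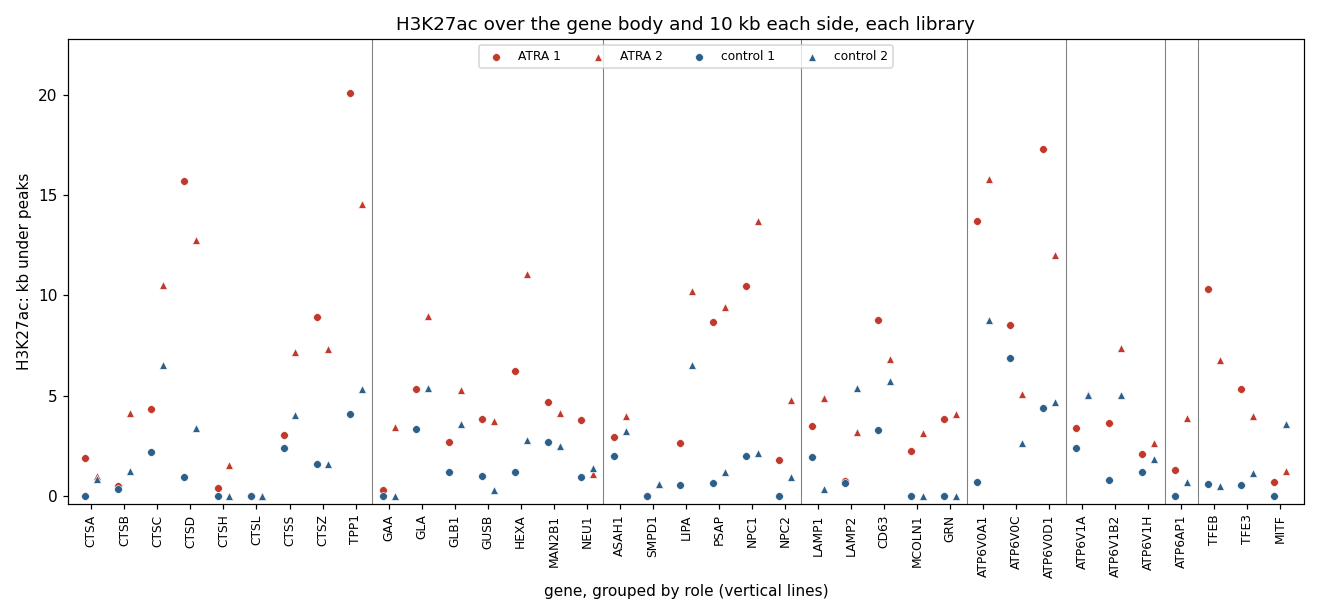
H3K27ac bp under peaks over the gene body and 10 kb each side, in kb, for each gene and library, with genes grouped by role. Both ATRA values were above both control values at 22 of the 37 genes.

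Among the 6 genes of lipid breakdown and export, H3K4me3 was higher at all 6 and H3K27ac at 3 (PSAP, NPC1 and NPC2). PSAP, the precursor of the saposins that present lipids to hydrolases, had 8669 and 9408 bp of H3K27ac with ATRA and 636 and 1208 bp without, a log2 change of 2.38. The ATRA peaks lay mostly at the promoter and past the end of the gene. NPC1, which exports cholesterol from the lysosome, had 10465 and 13709 bp against 1997 and 2114 bp, a log2 change of 2.10, and NPC2 had 1769 and 4781 bp against 0 and 924 bp, a change of 1.55. Part of the length at NPC1 lay at the TSS of its neighbor RMC1. SMPD1 had little H3K27ac in either condition, with 0 and 578 bp with ATRA and 0 and 586 bp without. Its H3K4me3 covered 5125 and 4561 bp against 2886 and 1919 bp, a log2 change of 0.78. At NPC1, H3K4me3 covered 11858 and 13275 bp with ATRA and 9273 and 7948 bp without, a change of 0.50. LIPA, the acid lipase gene, lies among interferon-induced IFIT genes, and its region holds the TSS of 6 other coding genes. Peaks at the TSS of other coding genes held 11348 and 13274 of its 14057 and 17580 bp of H3K4me3 in ATRA 1 and 2, and 9334 and 8044 of 12607 and 11276 bp in control 1 and 2.

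Among the 5 genes of membrane proteins, the channel MCOLN1 and progranulin, H3K27ac was higher at 4 and H3K4me3 at 2. GRN had 3837 and 4079 bp of H3K27ac in ATRA 1 and 2 and was listed at 0 in both controls, and it had the largest H3K4me3 change of the 37, with 7012 and 7336 bp against 4087 and 3086 bp, a log2 change of 0.83. MCOLN1, a calcium channel of the lysosomal membrane, had 2224 and 3152 bp of H3K27ac in its region with ATRA and was also listed at 0 without it. Of this, 1875 and 2059 bp belonged to peaks that began past the end of the gene and ran over the edge of the region. The other 349 bp of ATRA 1 lay past the gene end too, at the TSS of another coding gene. The H3K4me3 values of MCOLN1 overlapped, with a log2 change of 0.03. LAMP1 had 3492 and 4874 bp of H3K27ac against 1942 and 320 bp, a log2 change of 1.28, and 8534 and 6783 bp of H3K4me3 against 5550 and 4219 bp, a change of 0.56. The related LAMP2 did not share this. It had 733 and 3172 bp of H3K27ac with ATRA and 622 and 5389 bp without, which overlap, with a log2 change of −0.44. The tetraspanin CD63 had 8783 and 6841 bp of H3K27ac against 3302 and 5703 bp.

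**Figure D5:**
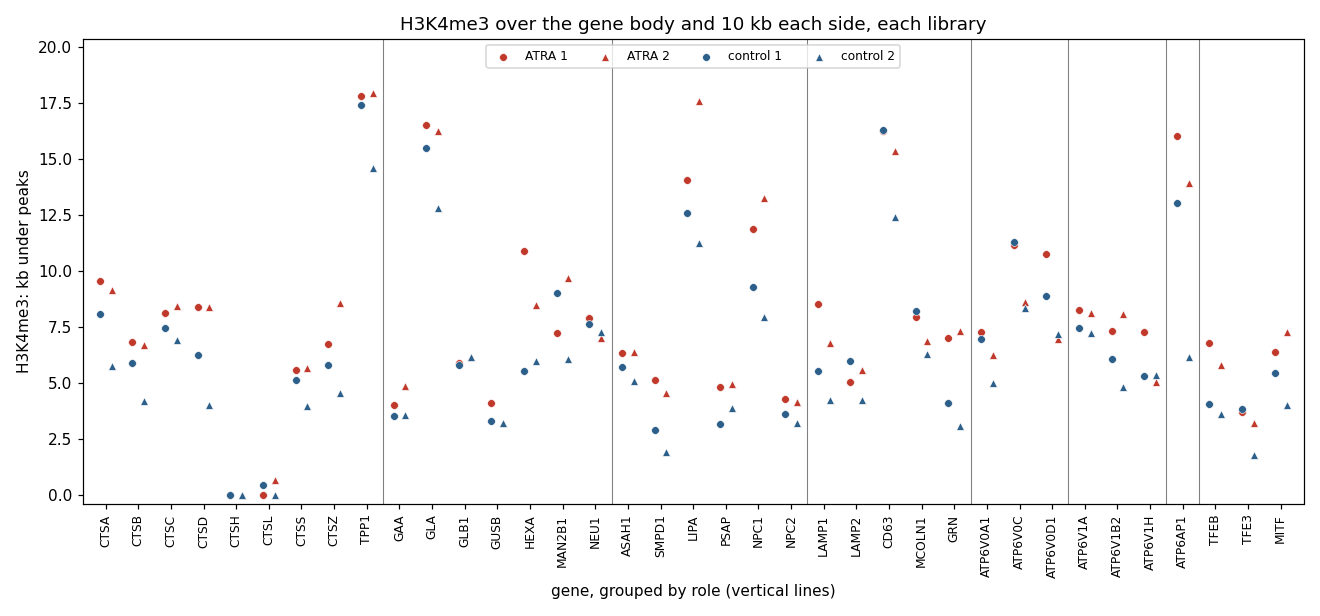
H3K4me3 bp under peaks over the gene body and 10 kb each side, in kb, for each gene and library, with genes grouped by role. Both ATRA values were above both control values at 23 of the 37 genes, with log2 changes of at most 0.83.

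Of the 7 V-ATPase genes, H3K27ac was higher at 4 (ATP6V0A1, ATP6V0D1, ATP6V1H and ATP6AP1) and H3K4me3 at 3 (ATP6V1A, ATP6V1B2 and ATP6AP1). In the V0 sector, ATP6V0D1 had 17300 and 12017 bp of H3K27ac in ATRA 1 and 2 and 4373 and 4689 bp in control 1 and 2, a log2 change of 1.50. ATP6V0A1 had 13733 and 15793 bp against 678 and 8771 bp, a change of 1.46, and the controls differed from each other by more than ATRA 1 differed from control 2. ATP6V0C, the proteolipid of the proton ring, had 8545 and 5099 bp against 6867 and 2615 bp, which overlap. None of the 3 V0 genes had higher H3K4me3. In the V1 sector the H3K27ac changes were small, from 0.15 at ATP6V1A, the catalytic subunit, to 0.73 at ATP6V1B2. ATP6AP1, an accessory subunit, had 1294 and 3894 bp of H3K27ac against 0 and 676 bp, a log2 change of 1.43. Its H3K4me3, at 16045 and 13934 bp against 13052 and 6169 bp, changed by 0.59, while the width of its TSS peak overlapped between conditions, at 5366 and 4550 bp with ATRA and 5077 and 3335 bp without.

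Neighboring genes were a limit of the region measure more widely, since 19 of the 37 regions held the TSS of another coding gene. At the 18 that held none, H3K27ac was higher at 9 and H3K4me3 at 11, with median log2 changes of 0.94 and 0.24. The shares over all genes with such regions were not taken. The added H3K27ac was not confined to the start sites. Of the H3K27ac bp of the 37 regions, peaks at the main TSS of the gene itself held 55.2% and 45.4% in ATRA 1 and 2 and 69.1% and 42.0% in control 1 and 2. Peaks at the main TSS of no coding gene held 36.0% and 41.7% with ATRA and 11.8% and 42.5% without. In number of peaks, the regions held 90 and 111 H3K27ac peaks with ATRA and 39 and 75 without, of which 26 and 31, and 22 and 24, lay at the main TSS. H3K4me3 peaks numbered 67 in both ATRA libraries and 64 and 59 in the controls.

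The genes with the longer E-box were compared with the others as a description. H3K27ac was higher over the region at all 7 genes with TCACGTGA and at 15 of the 30 without it, and the median log2 changes were 1.50 and 0.72. No share was taken over all genes with either box, so these counts have no background of their own. Among peaks with a −log10 q of at least 5 none of the 7 was higher, since the log2 change of CTSA, HEXA and ATP6V0D1 was below 0 and LAMP1, GAA, MCOLN1 and ATP6V1H had no such H3K27ac peak in any library. With equal totals that of ATP6V1H was below 0. H3K4me3 was higher at 4 of the 7 and at 19 of the 30, with medians of 0.25 and 0.22. For the shorter box, H3K27ac was higher at 9 of 11 genes with it and 13 of 26 without it. At the promoter, where the boxes were searched, the H3K27ac TSS peak was wider at 3 of the 7 and at 14 of the 30. For the shorter box it was wider at 4 of 11 and at 13 of 26. At MCOLN1, among the 7, most of the H3K27ac of the region lay past the end of the gene.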

How the data were processed

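Peaks of 8 ChIP-seq libraries of HL-60 cells were used, grouped by mark and treatment from the labels. To make them, the authors trimmed adapters (cutadapt), mapped reads to hg19 (Bowtie) and ran MACS2 in broad mode on every library alone. Versions, and the use of input DNA in the peak call, are not given in the sources used here. The authors deposited the positions of the peaks and a −log10 q for each peak, which was used only as a filter at 5. Fold enrichments and −log10 p values are also in the files, but their values are impossible for such measures, and they were left out. Numbers of reads are unknown, so no counting interval could be given.

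Genes and main TSS (MANE Select transcript) came from GENCODE release 44 mapped to GRCh37. A TSS peak had at least 1 bp within 500 bp of the TSS, and its width was the summed length of such peaks. Gene regions were the gene body with 10 kb each side, and log2 ratios used a pseudocount of 1000 bp. The same measures were taken for all 20098 protein-coding genes. No test was made across libraries. The motifs were searched 250 bases before to 50 after each main TSS, on the hg19 sequence. The measuring functions were checked on simulated peak lists. Python 3.11.15, numpy 2.4.6, pandas 2.3.3 and matplotlib 3.10.9 were used.

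The members and gene lists were chosen with earlier results of these data known. Values in every library were given, for each mark, to the first 12 (H3K27ac) or 8 (H3K4me3) genes with non-overlapping conditions by size of log2 change, to genes without H3K4me3 at the TSS in every library, to genes with H3K27ac at the TSS in both libraries of a single condition, and to the 3 transcription factors. Other genes given with values were chosen after their values were seen. Some items that these rules cover are not reported here. Same-numbered libraries of the 2 conditions have a common tag in their peak names, and over 75806 bins of H3K4me3 and 75824 of H3K27ac the deviations of same-numbered libraries from their condition means had Pearson correlations of 0.223 and 0.556. The numbers were therefore read as pairing the libraries. Alternatives were the TSS window, any annotated TSS, a minimal overlap of 200 bp, merging of peaks up to 500 bp apart, other regions, scaling to equal totals, the pseudocount, the −log10 q filter, pairing by number and the omission of each library.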

Additional observations from a re-analysis of the deposited data

How the results depend on the processing

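The precision of all values rests on 2 libraries per condition and on peak calls without read counts. The presence of H3K4me3 at the TSS in all 4 libraries held at 34 genes under each other window and when any library was left out, and at 24 genes among peaks with a −log10 q of at least 5. That filter also gave 15 genes with higher H3K4me3 over the region, and for H3K27ac 0 genes with a TSS peak in both ATRA libraries alone, 1 with a wider TSS peak, 4 with a higher region and a median log2 change of 0.00. With equal totals under peaks the medians were 0.06 (H3K4me3) and 0.43 (H3K27ac), and 14 genes had higher H3K4me3. A pseudocount of 100 bp gave an H3K27ac median of 1.53. With any annotated TSS, 5 genes (CTSD, LIPA, GRN, TFEB and ATP6AP1) had H3K27ac in both ATRA libraries alone, and with the TSS base alone 11 had a wider H3K27ac peak.

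Leaving out each library in turn gave 3 to 7 genes with H3K27ac at the TSS in the ATRA libraries alone, 19 to 26 with wider H3K27ac and 19 to 25 with wider H3K4me3 TSS peaks, 23 to 34 with higher H3K27ac and 24 to 30 with higher H3K4me3 regions. The medians ran from 0.69 to 1.33 for H3K27ac and from 0.13 to 0.37 for H3K4me3. Counts rise here by construction, since fewer libraries must be separated. Paired within replicate numbers (replicate block), H3K27ac was higher in both pairs at 32 genes and H3K4me3 at 25, with medians of 0.91 and 0.24. This rule asks for less than the main one. No count of higher or wider genes moved by more than 1.5 times. The H3K4me3 TSS peak of LAMP2 was narrower in both pairs, as was that of NEU1. For the counts of this paragraph no share over all genes was taken.

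Of 495 values of single genes with non-overlapping conditions under these alternatives, 464 kept their sign, 20 changed it and 11 were at 0, of which 7 were H3K27ac values under the −log10 q filter (CTSH, CTSZ, LAMP1, GAA, TPP1, MCOLN1 and ATP6V1H). With the −log10 q filter, H3K4me3 was −0.50 at NPC2, −0.80 at SMPD1, −0.70 at ATP6V1A and −0.47 at ATP6V1B2, and H3K27ac was −0.51 at CTSA, −0.54 at CTSD, −1.24 at CD63, −0.68 at HEXA, −1.18 at NPC1, −0.55 at NPC2, −1.22 at ATP6V0A1 and −1.74 at ATP6V0D1. With equal totals, H3K4me3 was −0.02 at CTSC, −0.01 at GLA, −0.06 at TPP1 and −0.07 at ATP6V1A, and H3K27ac was −0.03 at CD63, −0.15 at MAN2B1 and −0.17 at ATP6V1H. Within 5 kb of the TSS, H3K4me3 at CTSC was −0.04. The cause of these changes was not tested.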

Other observations

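Other genes of the lysosome were measured in the same way. Of 44 further lysosomal genes, 34 had H3K4me3 at the TSS in all 4 libraries, and H3K27ac over the region was higher in both ATRA libraries at 23 and lower at 0, compared with 30.3% and 2.86% of all genes. Their median log2 change was 0.59, compared with 0.18 over all genes and 0.40 over the genes with H3K4me3 in every library. IDS, which encodes iduronate sulfatase, had 11806 and 12055 bp of H3K27ac with ATRA and was listed at 0 in both controls. FUCA1, the fucosidase gene, had 725 and 7538 bp and was likewise listed at 0 in the controls. H3K4me3 was higher at 10 of the 44 genes, a share of 22.7%, compared with 28.0% of all genes. Of the 34 with H3K4me3 in every library, H3K4me3 was higher at 29.4%, compared with 43.7% of all such genes. H3K27ac was higher at 50.0% of these 34, compared with 40.9%.

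Of 18 further V-ATPase genes, H3K27ac was higher at 7 (38.9%) and lower at 0, compared with 30.3% and 2.86% of all genes. H3K4me3 was higher at 4 (22.2%) and lower at 1, compared with 28.0% and 2.64%. Of the 12 with H3K4me3 in every library, H3K27ac was higher at 58.3% and H3K4me3 at 33.3%, compared with 40.9% and 43.7% of all such genes. ATP6V1E2 had 17021 and 19136 bp of H3K27ac with ATRA and 2941 and 7473 bp without, a log2 change of 1.62, ahead of ATP6AP2 at 1.20 and TCIRG1 at 0.94. Of 15 genes of nutrient sensing at the lysosomal surface, H3K27ac was higher at 6 (40.0%) and lower at 0. Of the 14 among them with H3K4me3 in every library it was higher at 35.7%, compared with 40.9% of all such genes. LAMTOR4, a subunit of the Ragulator complex, had 9388 and 13559 bp against 2852 and 3573 bp, a log2 change of 1.57, followed by FNIP2 at 1.27 and LAMTOR1 at 1.00. H3K4me3 was higher at 7 of the 15 (46.7%) and lower at 0, compared with 28.0% and 2.64% of all genes. Of the 14 it was higher at 50.0%, compared with 43.7%. The H3K4me3 median log2 change was 0.29 over the 15, compared with 0.23 over the 37 genes. The median log2 change of H3K27ac was 0.33 for the further V-ATPase genes and 0.40 for the nutrient sensing genes, compared with 0.18 over all genes, 0.40 over the genes with H3K4me3 in every library and 0.87 for the whole covered genome, which has no pseudocount. The part of the wider genome coverage in these values was not tested.

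The long form TCACGTGA was found in 5 of the 44 further lysosomal promoters (11.4%), 1 of the 18 V-ATPase promoters and 1 of the 15 nutrient sensing promoters, compared with 1.46% of all promoters. The shorter box CACGTG was found in 20.5%, 22.2% and 33.3% of these lists, compared with 29.7% of the 37 and 8.74% of all promoters.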
